A study of Mus musculus with 24 samples.

Results

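Nuclear long noncoding RNAs were followed in the nuclei of Emx1-lineage cortical cells: Malat1, Neat1, Meg3, Miat, Rian and Snhg11, 6 of the 25135 genes in the table of each age. The members were found by gene symbol. They were selected on P1 expression values of these libraries, starting from the higher Malat1 in Kdm6b-cKO at P1, so the P1 genotype difference of a member is a description with no test. Nuclei came from the cortex of Kdm6b wt/wt mice (WT) and of littermates with Emx1-Cre and 2 floxed Kdm6b alleles (Kdm6b-cKO), and both genotypes carried the SUN1-GFP reporter of the nuclear envelope. The study's list of genotypes names Emx1-Cre for Kdm6b-cKO only. It states, however, that the reporter labelled Emx1+ progeny in both, and GFP+ nuclei were sorted from both, which requires Cre in WT as well. Fluorescence-activated nuclei sorting (FANS) of SUN1-GFP+ nuclei was followed by RNA-seq at postnatal day 1 (P1) and at P30, with 6 libraries in each group and 24 in all. The reporter marks every descendant of cells in which Emx1-Cre was active, neuronal and glial alike, so each library holds a mixture of cell types. In such bulk samples, fewer cells of a type and less RNA per cell cannot be told apart. Values are FPKM, read fragments scaled by transcript length and by a measure of library size, and libraries are named by genotype and by the numbers 0 to 5 of the table.

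Long noncoding RNAs that stay in the nucleus act there as scaffolds or as hosts that yield smaller RNAs. Malat1 gathers at nuclear speckles, where splicing factors are stored, and Neat1 is the RNA core around which paraspeckles form. Meg3 and Rian are expressed from the maternal copy of the imprinted Dlk1-Dio3 domain, and Rian carries small nucleolar RNAs in its introns. Miat, also called Gomafu, forms its own nuclear domain in neurons and binds splicing factors, and Snhg11 is a host gene of small nucleolar RNAs.

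In mm9, the build of the files, Malat1 lay at chr19:5795690-5802672 and Neat1 at chr19:5824710-5845480, both on the minus strand. Malat1 had 5 transcripts in GENCODE, the longest a single exon of 6982 bases, and Neat1 had 4, the longest a single exon of 20771 bases. On the plus strand of chromosome 12 lay Meg3, at chr12:110779206-110809939 with 10 transcripts, and Rian, at chr12:110842155-110899921 with 3. Miat was at chr5:112642248-112657968 on the minus strand, with 1 transcript of 7 exons and 8760 bases. Snhg11 was at chr2:158201449-158212210 on the plus strand, with 6 transcripts.

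The ends of Malat1 and of the long form of Neat1 are shown because they set these RNAs apart from messenger RNAs: neither ends in a usual poly(A) tail, and in both an A-rich tract folds back on a pair of U-rich motifs as a triple helix that protects the RNA from decay. The shorter Neat1 transcripts end before this point and do not contain it. The genomic sequence of 210 bases is given in RNA sense (with T for U) from mm9, minus strand, at chr19:5795922-5796131 for Malat1 and chr19:5824648-5824857 for Neat1, with capitals for runs of at least 11 bases found in both.
Malat1: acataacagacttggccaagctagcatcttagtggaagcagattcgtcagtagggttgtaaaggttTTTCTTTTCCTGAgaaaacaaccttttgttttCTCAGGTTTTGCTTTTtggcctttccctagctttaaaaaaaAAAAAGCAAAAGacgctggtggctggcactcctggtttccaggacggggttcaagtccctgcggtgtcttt
Neat1: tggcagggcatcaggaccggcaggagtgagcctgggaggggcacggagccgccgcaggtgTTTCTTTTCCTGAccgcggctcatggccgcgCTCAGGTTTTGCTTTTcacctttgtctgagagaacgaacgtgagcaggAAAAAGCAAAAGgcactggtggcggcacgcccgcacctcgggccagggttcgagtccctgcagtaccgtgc
The shared runs were 13, 16 and 12 bases long and began at base 67, 99 and 140 of the Malat1 window and at base 61, 92 and 140 of the Neat1 window. The first pair are U-rich and the last is A-rich. Among 32851 RefSeq promoter windows of 300 bases (GRCm38.p6, both strands), 0.00304% held the first run, 0.0% the second and 0.0335% the third. The tRNA-like product that follows the Malat1 triple helix has a row of its own in the tables, Mascrna, and was listed at 0 FPKM in all 24 libraries. That row carries the whole locus of Malat1, and at P30 it was marked as not quantified, so the 0 is not read as absence.

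Miat is known for repeats of TACTAAC, the letters of the branch point that the splicing factor SF1 binds. The stretch of its last exon with the densest repeats is shown, from mm9 chr5:112646329-112646480, minus strand, in the sense of the RNA, with the repeats in capitals.
Miat: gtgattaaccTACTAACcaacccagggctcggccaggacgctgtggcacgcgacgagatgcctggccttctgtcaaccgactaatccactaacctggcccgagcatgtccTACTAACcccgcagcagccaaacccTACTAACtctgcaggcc
This window of 152 bases lies in exon 7 of 7 and holds 3 of the 6 copies of TACTAAC in the spliced Miat transcript, which makes 0.685 copies per kilobase. In the longest transcripts of the other members, Neat1 had 1 copy (0.048 per kilobase) and Malat1, Meg3, Rian and Snhg11 had 0. Of the RefSeq promoter windows, 1.12% held at least 1 copy on either strand and 0.00304% held 3 or more.

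Read totals are not part of the tables, so an effective depth was estimated from the smallest spacing of low FPKM values (1 read), with fragments taken as 200 bases long. This depth follows the library scaling of the FPKM and need not equal the number of mapped reads. The effective depth was 805000 to 3903000 reads in WT and 190000 to 2853000 reads in Kdm6b-cKO at P1, and 5115000 to 8316000 and 1937000 to 8044000 reads at P30. The estimate was less sure at P1, where 66.7 to 89.0% of the values used lay close to whole reads, against 88.5 to 97.1% at P30. The lowest share, over 39 values, was that of Kdm6b-cKO library 2 at P1. At P1, 4 WT libraries and 1 Kdm6b-cKO library had 397 to 794 of 1128 olfactory receptor genes above 0, against 2 to 22 in the other 7. Kdm6b-cKO libraries 0 and 1 at P1 had 3423 and 3239 FPKM of the 45S ribosomal RNA precursor, against at most 899 FPKM in the other 10, and at P30 the precursor ranged from 175 to 25878 FPKM. Xist, the RNA of the inactive X chromosome, was 74.3 FPKM in Kdm6b-cKO library 2 at P1 and at most 2.18 FPKM in the other 23 libraries. The whole-gene level of Kdm6b overlapped between the genotypes, so it does not check the labels. At P1 it was 24.9 to 51.0 FPKM in WT and 15.0 to 38.4 FPKM in Kdm6b-cKO. At P30 it was 16.9 to 26.4 and 17.5 to 28.1 FPKM. The log2 difference was -0.41 (standard error 0.29) at P1 and 0.12 (standard error 0.17) at P30. By qRT-PCR of sorted nuclei, the study reported efficient loss of Kdm6b mRNA. Reads over the floxed exons were not analysed here.

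Malat1 was the most abundant member at P1 and ranked among the top 8 genes in each of the 12 libraries. In WT libraries 0 to 5 it was 2934, 7366, 6214, 3885, 5038 and 7158 FPKM. Kdm6b-cKO libraries 0 to 5 had 27202, 24384, 18169, 13819, 8009 and 13690 FPKM. All 6 Kdm6b-cKO libraries lay above all 6 WT libraries, with library 4 closest to WT and libraries 0 and 1 highest. The means were 5432 ± 1796 and 17550 ± 7213 FPKM (SD, n = 6, WT then Kdm6b-cKO, as in the pairs of means that follow). On the log2(FPKM + 0.1) scale this was a difference of 1.65 (standard error 0.57), a fold of 3.15. Of 16250 genes tested at P1, 0.603% had all Kdm6b-cKO libraries above all WT libraries and 0.683% had all below. Malat1 belongs to the first of these by the way it was chosen. It took 0.631 to 1.69% of the summed FPKM of a WT library and 1.67 to 4.55% of that of a Kdm6b-cKO library, so by this share the groups overlapped slightly.

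The Malat1 difference was measured beside several features of the libraries. The median log2 difference over all genes tested at P1 was -0.25, and relative to it the Malat1 difference was 1.91. Over the alternatives of scaling, weighting and library choice, the difference relative to the median ranged from 0.97 to 2.14. The next values are differences before the median was subtracted. Quantile normalization gave the smallest difference, 0.95 (0.97 relative to the median). Without Kdm6b-cKO libraries 0 and 1, those with the most 45S precursor, it was 1.32 (1.44 relative to the median). Without the shallowest Kdm6b-cKO libraries, 0 and 5, it was 1.53 (1.66 relative to the median). Within the libraries without olfactory receptor signal (2 WT and 5 Kdm6b-cKO) Malat1 differed by 1.85 and within those with it (4 WT and 1 Kdm6b-cKO) by 1.33. The part of the 45S precursor, the receptor signal and depth in the difference was otherwise not tested.

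**Figure D1:**
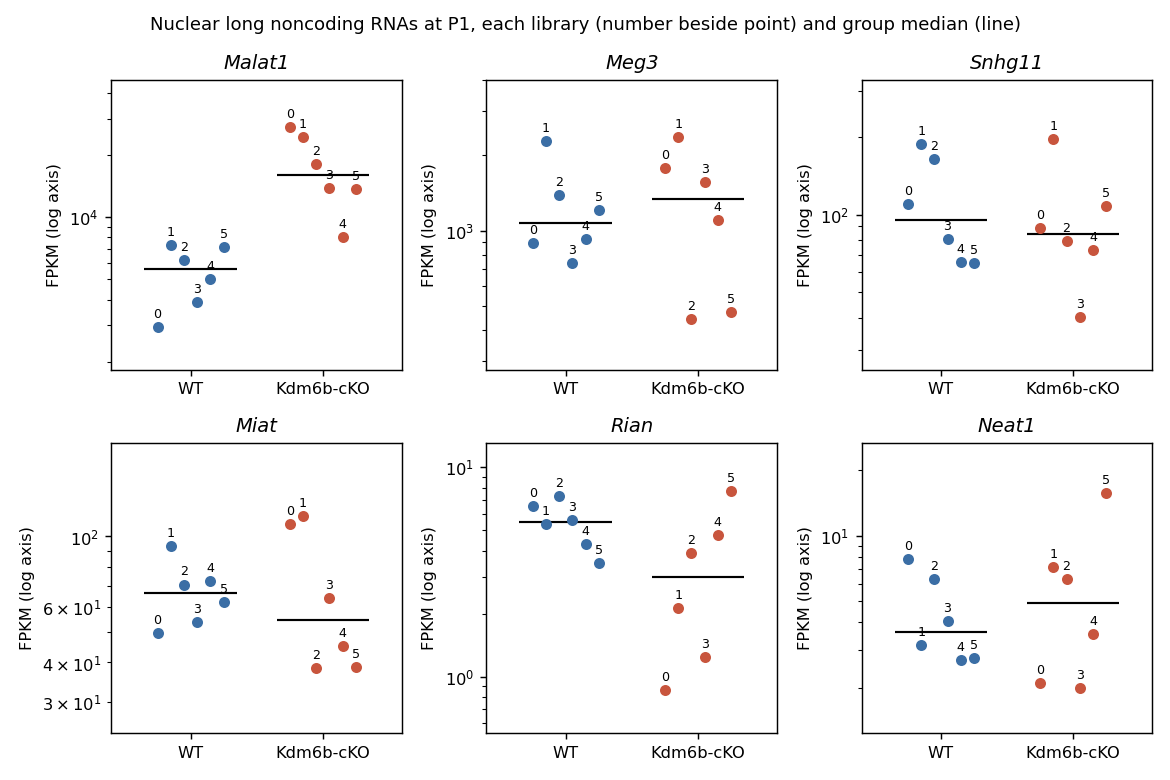
FPKM (log axis) of the 6 members in each P1 library, with WT on the left and Kdm6b-cKO on the right of each panel, the library number beside each point and a line at the group median. The Malat1 groups do not overlap (2934 to 7366 FPKM in WT, 8009 to 27202 FPKM in Kdm6b-cKO), and the groups of the other 5 members do.

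Meg3, the maternally expressed RNA at the centre of the Dlk1-Dio3 domain, came next in level. In WT libraries 0 to 5 it was 896, 2276, 1385, 743, 925 and 1214 FPKM. In Kdm6b-cKO libraries 0 to 5 it was 1782, 2362, 445, 1568, 1102 and 472 FPKM. The groups overlapped, and Kdm6b-cKO held both the highest library (1) and the lowest pair (2 and 5). The means were 1240 ± 559 and 1288 ± 760 FPKM (SD, n = 6), a log2 difference of -0.10 (standard error 0.46). The ratio of Malat1 to Meg3, which carries the Malat1 difference that chose the members, was 3.24 to 5.89 in WT (median 4.86) and 7.27 to 40.8 in Kdm6b-cKO (median 12.8), the highest value being that of Kdm6b-cKO library 2.

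Rian, which lies downstream of Meg3 in the same domain and on the same strand, was far lower. In WT libraries 0 to 5 it was 6.53, 5.36, 7.26, 5.61, 4.31 and 3.50 FPKM. The Kdm6b-cKO values, in the same order, were 0.861, 2.12, 3.88, 1.24, 4.74 and 7.68 FPKM. The highest and the 3 lowest values were all in Kdm6b-cKO, and the groups overlapped. The means were 5.43 ± 1.39 and 3.42 ± 2.57 FPKM (SD, n = 6), a log2 difference of -0.97 (standard error 0.51), or -0.72 relative to the median of all genes. At these levels the reads were few, about 12 to 71 in a WT library and 1 to 44 in a Kdm6b-cKO library, where library 0 had 1. Within the libraries without receptor signal Rian differed by -1.43 and within those with it by 0.61.

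Mirg, a further transcript of the domain that hosts microRNAs, is no member but continues the same strand. Its P1 means were 8.37 ± 5.52 and 17.0 ± 15.3 FPKM (SD, n = 6, WT then Kdm6b-cKO), a log2 difference of 0.77 (standard error 0.58). Its ratio to Rian ran from 0.78 to 3.16 in WT and from 1.06 to 49.9 in Kdm6b-cKO, and the top of that range is library 0, where Rian rested on 1 read.

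Miat was 49.7, 93.4, 70.5, 53.6, 72.5 and 61.9 FPKM in WT libraries 0 to 5 at P1. Kdm6b-cKO libraries 0 to 5 had 110, 116, 38.4, 63.7, 44.9 and 38.8 FPKM. Kdm6b-cKO libraries 0 and 1 were above every WT library and libraries 2, 4 and 5 below every one. The means were 66.9 ± 15.8 and 68.6 ± 35.6 FPKM (SD, n = 6), a log2 difference of -0.09 (standard error 0.31).

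The small nucleolar RNA host Snhg11 was 109, 186, 164, 80.3, 65.6 and 65.0 FPKM in WT libraries 0 to 5. In Kdm6b-cKO libraries 0 to 5 it was 88.7, 195, 78.8, 40.3, 72.7 and 108 FPKM. The groups overlapped, with Kdm6b-cKO holding both the highest and the lowest library. The means were 112 ± 52.2 and 97.2 ± 52.7 FPKM (SD, n = 6), a log2 difference of -0.24 (standard error 0.37), which was -0.86 (standard error 0.33) with libraries weighted by depth.

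Neat1 was low at P1. In WT libraries 0 to 5 it was 7.79, 3.16, 6.34, 4.05, 2.70 and 2.74 FPKM. The Kdm6b-cKO values, in the same order, were 2.11, 7.20, 6.30, 1.99, 3.53 and 15.6 FPKM. The groups overlapped, and the highest value was that of Kdm6b-cKO library 5, the shallowest of all. The means were 4.46 ± 2.12 and 6.13 ± 5.13 FPKM (SD, n = 6), a log2 difference of 0.20 (standard error 0.52). The sign of this difference changed with the libraries: it was -0.42 within those without receptor signal and 2.04 within those with it, the latter resting on that 1 Kdm6b-cKO library, and it was -0.19 with each library divided by its summed FPKM and -0.20 with weights by depth. Neat1 lies close to Malat1 on the same strand of chromosome 19, and the Malat1 to Neat1 ratio was 376 to 2610 in WT and 876 to 12900 in Kdm6b-cKO. This ratio, too, carries the Malat1 difference that chose the members. Its top was Kdm6b-cKO library 0, a shallow library where Neat1 was 2.11 FPKM.

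For the remaining members at P1 the difference in the libraries without receptor signal and in those with it was -0.18 and -1.14 for Meg3, -0.01 and -0.72 for Miat, and -0.78 and 0.31 for Snhg11, so that for Snhg11 the sign differed.

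By level, the P1 order of the members was Malat1, Meg3, Snhg11, Miat, Rian and Neat1. Malat1 was above Meg3 in 12 of 12 libraries, Meg3 above Snhg11 in 12 and Miat above Rian in 12. Neighbours that did not keep their order were Snhg11 and Miat (Snhg11 higher in 9 of 12) and Rian and Neat1 (Rian higher in 6 of 12). FPKM are per length of transcript, so these levels can be set side by side, but the length used for a gene with several transcripts is an estimate. With limma at an adjusted p under 0.05 and more than 2-fold, 0 of 16250 genes were called at P1 (0.0%), and 2352 (14.5%) had an unadjusted p under 0.05. No member was read against these shares.

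At P30, Malat1 and Meg3 were listed at 0 FPKM in all 12 libraries. Both carried the Cuffdiff status HIDATA, which marks loci with too many fragments to quantify, as did 6 genes in all, among them Mascrna and 2 microRNA genes within Meg3. A listed 0 is therefore no measured level, and Malat1 and Meg3 were read at P1 only. The other 4 members were tested at P30, in libraries that had no part in choosing them.

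Snhg11 was the most abundant readable member at P30. In WT libraries 0 to 5 it was 2129, 1851, 2203, 2539, 2219 and 2347 FPKM. Kdm6b-cKO libraries 0 to 5 had 2101, 2120, 2349, 1904, 1607 and 2171 FPKM. The groups overlapped over most of their range, with Kdm6b-cKO library 4 lowest. The means were 2215 ± 229 and 2042 ± 256 FPKM (SD, n = 6), a log2 difference of -0.12 (standard error 0.27, 95% interval -0.69 to 0.45, limma adjusted p = 0.888). The limma standard error is drawn toward the spread of genes of like level. The pooled SD of Snhg11 itself within groups was 0.17 on the log2 scale, so the interval does not measure its own spread alone. The exact two-sided permutation test over all equal divisions of the 12 libraries gave p = 0.264, where 0.00216 is the smallest p it can give.

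Miat was 149, 175, 219, 235, 195 and 217 FPKM in WT libraries 0 to 5 at P30. In Kdm6b-cKO libraries 0 to 5 it was 197, 196, 210, 157, 144 and 158 FPKM. The lowest library was a Kdm6b-cKO library (4) and the highest a WT library (3), with the groups overlapping. The log2 difference was -0.16 (standard error 0.17, 95% interval -0.53 to 0.21, limma adjusted p = 0.748, exact permutation p = 0.26), with means of 198 ± 31.9 and 177 ± 27.2 FPKM (SD, n = 6).

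Neat1, the paraspeckle RNA, was 92.4, 64.8, 89.3, 126, 78.8 and 88.4 FPKM in WT libraries 0 to 5 at P30. The Kdm6b-cKO values, in the same order, were 65.5, 58.5, 115, 94.6, 108 and 50.5 FPKM. The 3 lowest Kdm6b-cKO libraries (0, 1 and 5) were those with under 1000 FPKM of the 45S precursor. The means were 90.0 ± 20.4 and 82.0 ± 27.4 FPKM (SD, n = 6), a log2 difference of -0.17 (standard error 0.23, 95% interval -0.68 to 0.33, limma adjusted p = 0.805, exact permutation p = 0.472). Within the 1 WT and 3 Kdm6b-cKO libraries under 1000 FPKM of the precursor Neat1 differed by -0.68, and within the 5 WT and 3 Kdm6b-cKO libraries over it by 0.27 (exact permutation p = 0.25 and p = 0.268, where the smallest possible are 0.25 and 0.0179). With the precursor as a term of the fit the difference was 0.002 (limma adjusted p = 0.997). Other settings moved it the other way. It was -0.49 with limma array weights and -0.35 with weights by depth. Without the 2 Kdm6b-cKO libraries over 10000 FPKM of the precursor it was -0.36.

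Rian was 14.8, 21.7, 22.1, 27.4, 27.0 and 24.96 FPKM in WT libraries 0 to 5 at P30. Kdm6b-cKO libraries 0 to 5 had 22.6, 15.9, 10.6, 21.6, 25.7 and 16.5 FPKM. WT library 0 fell among the low Kdm6b-cKO libraries, and the groups overlapped. The means were 23.0 ± 4.68 and 18.8 ± 5.48 FPKM (SD, n = 6), a log2 difference of -0.32 (standard error 0.22, 95% interval -0.80 to 0.17, limma adjusted p = 0.599, exact permutation p = 0.214). Mirg was 95.4 ± 15.7 and 104 ± 33.0 FPKM at P30 (SD, n = 6), a log2 difference of 0.09 (standard error 0.20, limma adjusted p = 0.898).

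The libraries were also divided by their measured 45S precursor, a division that the labels do not name. For Miat, Rian and Snhg11 the differences at P30 were 0.30, 0.29 and 0.001 in the libraries under 1000 FPKM of the 45S precursor, and -0.30, -0.44 and -0.20 in those over it. In the libraries over 1000 FPKM the exact permutation p-values of these 3 members were 0.107, 0.143 and 0.286, where 0.0179 is the smallest possible. In those under it, with 1 WT library, the smallest possible p is 0.25, so no difference could pass. None of the 4 members was called at P30 by limma, at an adjusted p under 0.05 and more than 2-fold, and 0 of the 4 had an unadjusted p under 0.05. Over all 13289 genes tested, 37 were called (0.278%), 1689 (12.7%) had an unadjusted p under 0.05, 1.05% had all Kdm6b-cKO libraries below all WT libraries and 0.888% all above. In none of the 4 members did the groups lie apart. The 4 limma intervals leave room for a fall of up to 0.80 (Rian) and a rise of up to 0.45 (Snhg11) on the log2 scale. They are wider under some alternatives: the standard error for Snhg11 was 0.54 with no filter on low values, and Rian was at -0.51 (standard error 0.23) without the 2 Kdm6b-cKO libraries over 10000 FPKM of the precursor.

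**Figure D2:**
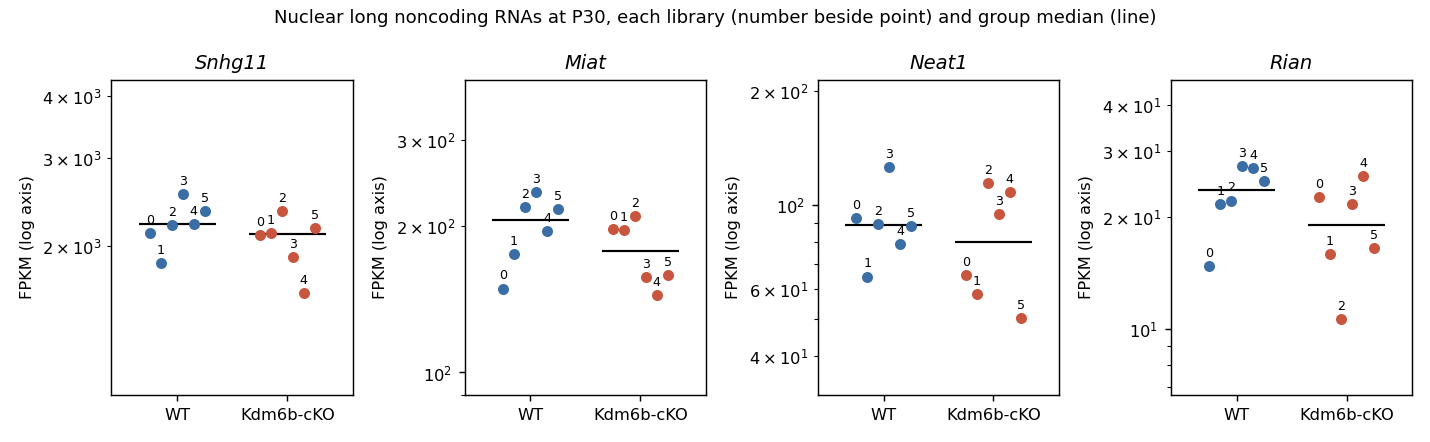
FPKM (log axis) of the 4 members readable at P30 in each library, with WT on the left and Kdm6b-cKO on the right of each panel, the library number beside each point and a line at the group median. WT and Kdm6b-cKO overlap in all 4 panels, for example from 1851 to 2539 FPKM against 1607 to 2349 FPKM for Snhg11.

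The P30 order was Snhg11, Miat, Neat1 and Rian, and it held in 12 of 12 libraries for each neighbouring pair. Snhg11 was 10.1 to 14.3 times Miat, Miat 1.33 to 3.36 times Neat1 and Neat1 2.91 to 10.8 times Rian. The ages were normalized separately, so their levels were set side by side and not tested. Snhg11 had a median of 84.5 FPKM at P1 and 2150 FPKM at P30, and ranked between 269 and 2645 in a P1 library and between 6 and 20 in a P30 library. Neat1 had medians of 3.79 and 88.8 FPKM and ranked between 4976 and 13476 at P1 and between 368 and 1026 at P30. Miat went from a median of 62.8 to one of 196 FPKM and Rian from 4.52 to 21.9 FPKM. Neat1 and Rian had no order at P1 (median ratio of Rian to Neat1 0.992), and Neat1 was above Rian in every P30 library.

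The members differed in how steady they were among libraries of 1 genotype. At P30 the pooled SD within groups, on the log2 scale, was 0.17 for Snhg11, 0.23 for Miat, 0.40 for Rian and 0.42 for Neat1, with a median of 0.51 over all genes tested. Only 2.01% of the genes had a smaller SD than Snhg11 and 7.71% a smaller one than Miat. At P1 the SD was 0.56 for Miat, 0.59 for Malat1, 0.70 for Snhg11, 0.83 for Meg3, 0.86 for Rian and 0.91 for Neat1, with a median of 0.82 over all genes. The low Rian and Neat1 were thus the least steady at P1, and Snhg11 and Miat the steadiest at P30.

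Level and library depth were compared in 11 relations of log2(FPKM + 0.1) with log2 effective depth, and none passed the correction (smallest adjusted p = 0.823). Malat1 was read within each genotype, as its groups do not overlap. Its Pearson r was 0.08 in WT (exact permutation p = 0.897, Spearman rho 0.143, exact permutation p = 0.803, n = 6) and -0.415 in Kdm6b-cKO (exact permutation p = 0.422, Spearman rho -0.143, exact permutation p = 0.803, n = 6). Without the 2 libraries farthest from the median depth these became -0.458 and -0.678 over 4 libraries each, too few to read. No WT library was as shallow as Kdm6b-cKO libraries 0 and 5 (342000 and 190000 reads).

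Among the other members at P1 the Pearson r over 12 libraries was -0.263 for Neat1, 0.194 for Meg3, -0.111 for Miat, 0.167 for Rian and -0.019 for Snhg11, with permutation p-values from 0.406 to 0.952. The Spearman rho values were -0.168, 0.098, -0.182, -0.007 and -0.077 in the same order, with permutation p-values from 0.57 to 0.991. Without the 2 libraries farthest from the median depth, r was 0.004, -0.024, -0.361, 0.155 and 0.038. For Snhg11 at P1, r was 0.932 within WT (exact permutation p = 0.0125, adjusted p = 0.138, n = 6) and -0.522 within Kdm6b-cKO (exact permutation p = 0.325, adjusted p = 0.774, n = 6). Neither passed the correction, and the difference between the genotypes was not tested.

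At P30 r was -0.521 for Neat1 (permutation p = 0.0802, Spearman rho -0.524, permutation p = 0.0841), 0.322 for Miat, 0.075 for Rian and 0.444 for Snhg11 over 12 libraries. The permutation p-values of the last 3 were 0.308, 0.818 and 0.15, and their rho values were 0.147, 0.0 and 0.084 (permutation p = 0.653, 1.0 and 0.799). Without the 2 libraries farthest from the median depth, r was -0.436 for Neat1, -0.305 for Miat, 0.482 for Rian and -0.403 for Snhg11, so that the direction for Miat and Snhg11 rests on those libraries. With each library divided by its summed FPKM, r at P30 was -0.324 for Neat1 (permutation p = 0.306), 0.633 for Miat (permutation p = 0.0236, adjusted p = 0.13), 0.372 for Rian (permutation p = 0.235) and 0.668 for Snhg11 (permutation p = 0.0181, adjusted p = 0.13). Neat1 was the member whose direction was the same in WT (-0.394), in Kdm6b-cKO (-0.871) and in the libraries over 1000 FPKM of the precursor (-0.559).

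**Figure D3:**
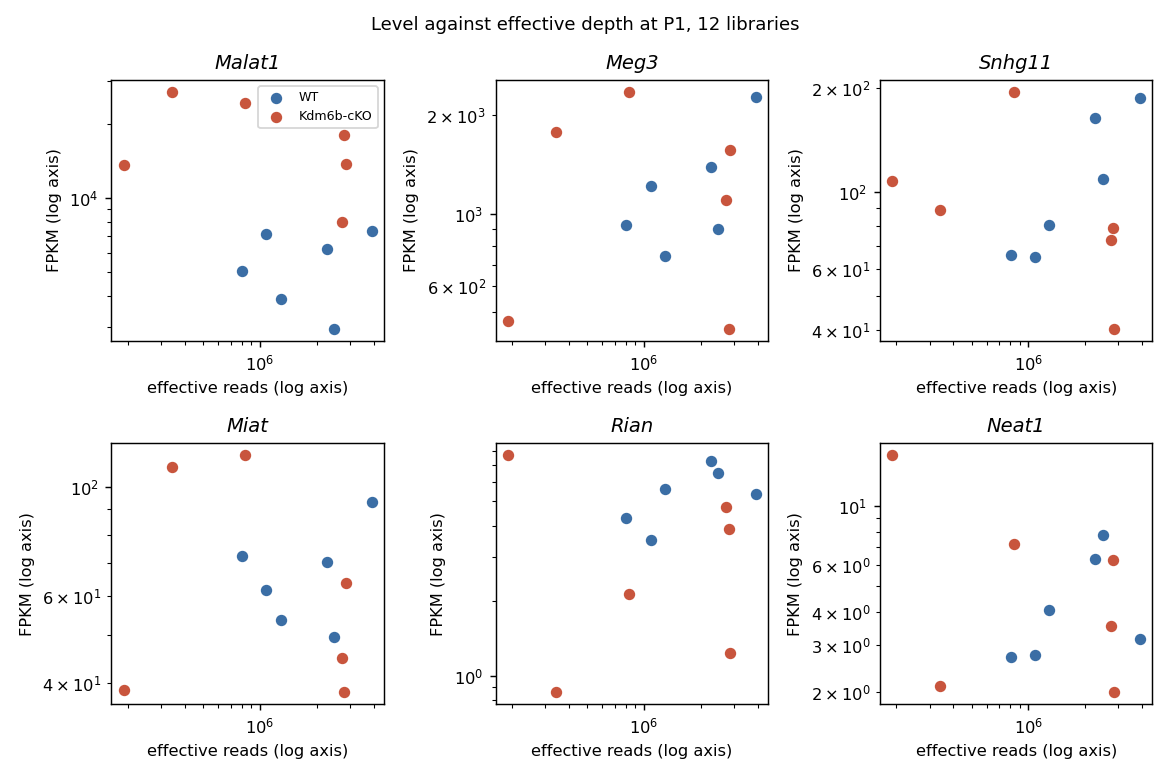
FPKM of each member against the effective depth of the library at P1 (both axes log), with WT in blue and Kdm6b-cKO in red. The WT libraries span 805000 to 3903000 reads and the Kdm6b-cKO libraries 190000 to 2853000 reads, so the 2 shallowest Kdm6b-cKO libraries have no WT library of like depth.

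Genes with the pattern most like a member's were ranked by Pearson r over the 12 libraries of an age, among the genes whose mean reached 5 FPKM (9720 at P1 and 8944 at P30). For Malat1 they were Ccar1 (r = 0.968), Rad50 (0.966) and U2surp (0.959), which encode a cell cycle and apoptosis regulator, a DNA break repair protein and a U2 snRNP-associated protein. These r values carry the Malat1 genotype difference that chose the members. The log2 differences of Ccar1, Rad50 and U2surp at P1 were 1.026, 0.828 and 0.795. Meg3 was closest to Dennd6b (0.954), Vps16 (0.953) and Matk (0.951). For Miat at P1 they were Ulk1 (0.972), Nrbp2 (0.968) and Rhot2 (0.959), and at P30 Insl5 (0.887), Camk2g (0.883) and Ltk (0.882). Rian was closest to Gsap (0.950), Marchf11 (0.948) and Lgi1 (0.933) at P1 and to Mon2 (0.905), Arhgap26 (0.888) and Dscam (0.872) at P30. Snhg11 was closest to Pianp (0.897), Mtor (0.887) and Rasal1 (0.863) at P1 and to Mbd3 (0.940), Ltk (0.924) and Tmem106c (0.923) at P30. Neat1 was closest to Nr2f2 (0.890), Mbnl1 (0.889) and Zfp160 (0.840) at P1 and to Ckb (0.906), Scand1 (0.874) and Rapgef3 (0.874) at P30. Of these genes, Ltk stood in the list of 2 members at P30, and no gene stood in the list of the same member at both ages. The libraries share depth and composition, and the highest of so many r values is high by selection.

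Related genes were counted from fixed lists. Of 23 other long noncoding RNAs tested at P1, 13 were lower and 10 higher in Kdm6b-cKO, with a median log2 difference of -0.16 against -0.25 for all genes. At P30, 17 were tested, with a median of -0.01 against -0.05 for all genes, and 0 were called. Rmst, a long noncoding RNA of neural progenitors, was the 1 of 17 whose groups did not overlap at P30, all Kdm6b-cKO libraries lying below WT as in 1.05% of all genes, and it was not called: its means were 2.82 ± 1.33 and 0.783 ± 0.429 FPKM (SD, n = 6, WT then Kdm6b-cKO), a log2 difference of -1.75 (standard error 0.40, limma adjusted p = 0.0942).

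The other small nucleolar RNA host genes, the group that Snhg11 belongs to by name, were higher in 15 of 17 at P1, with a median of 1.14 on the log2 scale and a range from -0.86 to 4.98, and none was called. Over all genes tested at P1, 5978 of 16250 were higher, with a median of -0.25. The top of the range was Snhg9 (standard error 2.63), with values down to 0 FPKM in both genotypes. Snhg11 itself was at -0.24. At P30 the median of 16 such genes was -0.09, 7 were higher and 9 lower, and none was called. Over all genes tested at P30, 6001 of 13289 were higher. The 7 neighbours in the Dlk1-Dio3 domain tested at P1 had a median of -0.27, from -1.31 for Dio3 to 0.81 for Begain. The 4 tested at P30 had a median of 0.10, with Wdr25 lowest at -0.82 (limma adjusted p = 0.296) and 0 called.

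Protein partners were read in the same way. Over all genes tested, 5978 of 16250 were higher at P1 and 6001 of 13289 at P30. The 14 paraspeckle proteins tested had a median of 0.17 at P1 (9 higher) and 0.03 at P30 (8 higher), and 0 were called at either age. Sfpq and Nono, on which Neat1 paraspeckles depend, were at 0.69 (standard error 0.31, limma adjusted p = 0.374) and 0.22 (standard error 0.35, limma adjusted p = 0.843) at P30. The 15 nuclear speckle and splicing proteins had a median of 0.25 at P1 (11 higher) and 0.20 at P30 (14 higher), with 0 called. Srsf1, a speckle protein that binds Malat1, had P1 means of 33.3 ± 4.71 and 49.3 ± 10.4 FPKM (SD, n = 6, WT then Kdm6b-cKO), a log2 difference of 0.55. Sf1, which binds the repeat of Miat, was at 0.03 at P1 and 0.13 at P30 (limma adjusted p = 0.838). Mettl16, known to bind the triple helix of Malat1, was the 1 of 15 whose groups did not overlap at P30 (all Kdm6b-cKO libraries below WT, as in 1.05% of all genes). The groups nearly met, at 12.01 FPKM in the highest Kdm6b-cKO library and 12.05 FPKM in the lowest WT library, with means of 13.0 ± 1.04 and 10.4 ± 1.38 FPKM (SD, n = 6, WT then Kdm6b-cKO), a log2 difference of -0.32 (standard error 0.14, limma adjusted p = 0.35). Of 6 structural noncoding RNAs, 2 were tested at each age, with medians of 2.29 at P1 and 0.43 at P30 and 0 called.

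**Figure D4:**
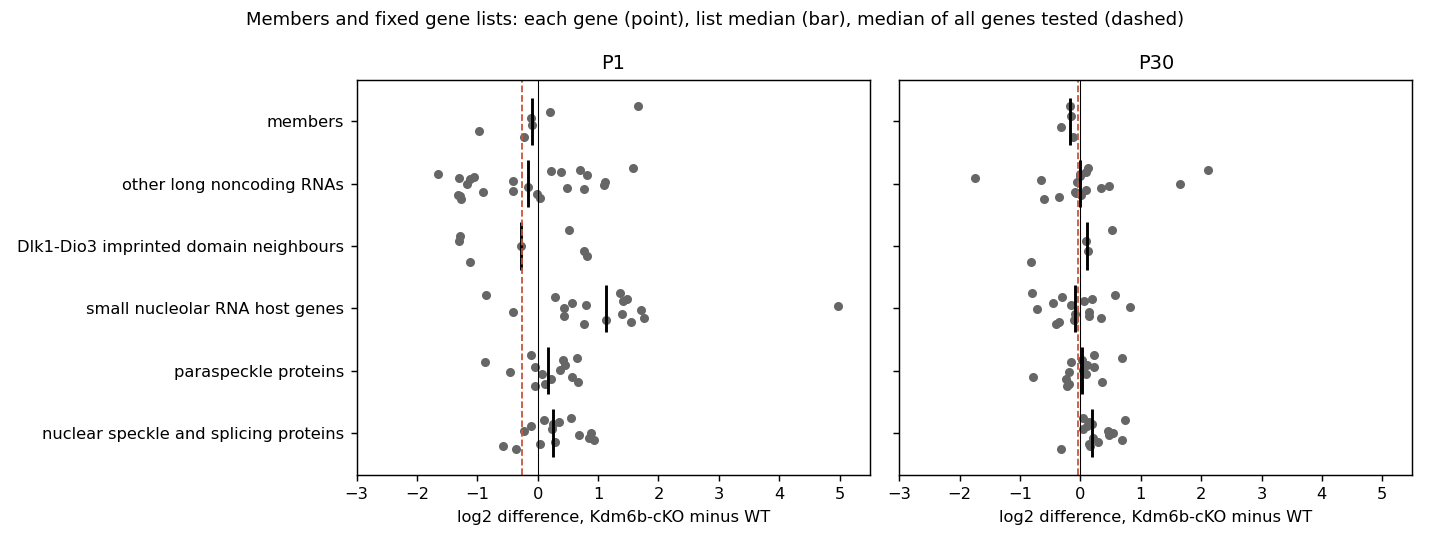
Log2 difference (Kdm6b-cKO minus WT, log2(FPKM + 0.1) scale) of each tested gene, by list, at P1 and P30, with a black bar at the list median and a dashed red line at the median of all genes (-0.25 at P1, -0.05 at P30). The small nucleolar RNA host genes sit to the right at P1 (median 1.14) and around 0 at P30 (-0.09).

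Markers of the sorted lineage were present: 10 of 10 glutamatergic and 10 of 10 pan-neuronal markers passed the filter at both ages, and Emx1 had P1 means of 11.6 ± 9.91 and 23.9 ± 13.9 FPKM (SD, n = 6, WT then Kdm6b-cKO). The summed glutamatergic markers were 436 to 683 FPKM (WT) and 547 to 951 FPKM in Kdm6b-cKO at P1, and 318 to 675 and 231 to 765 FPKM at P30. Summed pan-neuronal markers were 1665 to 2182 and 1529 to 2946 FPKM at P1, and 670 to 1030 and 714 to 1501 FPKM at P30. GABAergic neurons, which arise outside the Emx1 lineage, had markers too: 10 of 11 were tested at P1, with sums of 663 to 1453 FPKM (WT) and 897 to 2794 FPKM in Kdm6b-cKO, and 8 of 11 at P30, all 8 higher in Kdm6b-cKO with sums of 41.5 to 529 and 197 to 376 FPKM and 0 called. Among all genes tested at P30, 6001 of 13289 were higher.

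Glial and vascular markers are given beside the members in the same way. Bulk libraries do not show which of these cells express a member. Oligodendrocyte markers summed to 19.2 to 40.0 FPKM (WT) and 12.6 to 32.1 FPKM in Kdm6b-cKO at P1, and at P30 to 261 to 498 and 136 to 196 FPKM, with 8 of 8 lower and 2 called. Among all 13289 genes tested at P30, 7288 were lower and 37 were called. Oligodendrocyte precursor markers summed to 32.8 to 52.5 and 18.8 to 33.7 FPKM at P1, and to 15.6 to 24.4 and 8.92 to 18.5 FPKM at P30, with 1 of 6 called lower. Astrocyte markers summed to 191 to 286 and 102 to 349 FPKM at P1 and to 97.3 to 163 and 90.2 to 155 FPKM at P30, with 0 called. Microglial markers summed to 65.2 to 145 and 26.6 to 141 FPKM at P1 and to 5.97 to 32.4 and 12.9 to 32.8 FPKM at P30, and endothelial and mural markers to 131 to 251 and 64.2 to 247 FPKM and to 4.10 to 19.9 and 9.01 to 27.7 FPKM. No marker of these lists was at 0 in every library of an age, but 2 of 8 endothelial and mural markers were under 1 FPKM in every P30 library. The part of cell composition in the level of any member was not tested.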

How the data were processed

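The values used are FPKM per gene and library, which the authors deposited in 1 table per age beside a Cuffdiff comparison. Per the labels and the study's methods, reads were aligned to mm9 with HISAT2 and quantified with Cuffdiff; versions are not given in the sources used here. Of the deposited comparison only the other columns, locus and status, were used. It also holds the authors' group means, fold changes and test values, which were left out.

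WT and Kdm6b-cKO were contrasted at P1 and at P30 separately. Genes whose mean over the 12 libraries reached 1 FPKM entered a trended, two-sided limma fit (version 3.58.1, R 4.3.3) of log2(FPKM + 0.1), with Benjamini-Hochberg adjustment over all of them. Called genes had an adjusted p under 0.05 and over 2-fold. A fold on this scale understates changes of low genes. Standard errors and intervals are those of this fit, which draws the variance of a gene toward that of genes of like level. For Malat1 at P1 the standard error was 0.57 with the trend and 0.36 without it. Single members were tested at P30 by exact permutation, and depth relations with 100000 resamples over 12 libraries. The limma script was tested on simulated data.

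The members, gene lists and tests were chosen with earlier results of these data known. Named genes are the members, list genes that were called, did not overlap between groups or are neighbours or partners of members, and the 3 genes most like each member. Called cell type markers are given as counts. Meg3, like Malat1, was dropped at P30 after its status was seen. The table's library numbers are not the replicate numbers of the labels, so libraries were assigned to groups only. Whether libraries of a group came from separate animals is not stated, so p-values measure the spread between libraries. Strand of the libraries is not stated, so reads from overlapping genes cannot be told apart. The alternatives were other pseudocounts (1 and 0.01), filters (none and 5 FPKM), scalings, weights, terms for the olfactory receptor and 45S signals (divisions made from these data, which the labels do not name) and leaving out libraries. Sequences were read from the mm9 genome with pysam 0.24.0, and figures drawn with Python 3.11.15 and matplotlib 3.10.9.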

Additional observations from a re-analysis of the deposited data

How the results depend on the processing

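The P1 difference of Malat1 was positive under every alternative run, from 0.95 (quantile normalization, standard error 0.29) to 1.67 over changes of processing and from 1.49 to 1.86 when 1 library was left out. Malat1 was chosen for this direction and its groups do not overlap in FPKM, so leaving out libraries could not change the sign. Over the 12 libraries or all but 1 or 2 of them, the P30 differences of Miat, Rian and Snhg11 were negative under all alternatives, and that of Neat1 under all but the 45S term (0.002). Within the libraries under 1000 FPKM of 45S precursor Miat, Rian and Snhg11 were at 0.30, 0.29 and 0.001, and within those over it Neat1 was at 0.27. No P30 member reached a limma adjusted p under 0.05. The lowest was 0.0513 for Neat1, whose P30 difference ran from -0.49 (array weights) to 0.002 over changes of processing. At P1 the sign for Neat1, Meg3 and Miat changed with 1 library left out (-0.15 to 0.44, -0.33 to 0.15 and -0.27 to 0.05). The farthest moves from the reported P1 differences were, per member, Snhg11 to -0.86 with weights by depth (standard error 0.33), Meg3 to -0.70 with quantile normalization (standard error 0.42), and Miat to -0.53 without the 2 Kdm6b-cKO libraries richest in 45S precursor (standard error 0.23). Neat1 ran from -0.23 with array weights to 0.73 with quantile normalization, and Rian from -1.35 with division by summed FPKM to -0.51 without those 2 libraries. With a filter of 5 FPKM, Rian could not be tested at P1.

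The number of genes called was less stable. At P1 it was 1 without the trend, 403 with weights by depth, and 0 to 51 with 1 library left out (51 without Kdm6b-cKO library 4, 2 without WT library 4). At P30 it was 530 with array weights, 62 with weights by depth, 550 with a 45S term, and 2 to 43 with 1 library left out. It fell to 22, 2, 2, 5 and 2 without WT libraries 1 to 5, and to 8, 10 and 21 without Kdm6b-cKO libraries 0, 1 and 5. Leaving out the 2 Kdm6b-cKO libraries over 10000 FPKM of 45S precursor, chosen after seeing the data like the 2 other exclusions named at P1, gave 61. Causes were not tested, and none of these settings called a member at P30.

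Depth relations changed sign without the 2 libraries farthest from the median depth for Neat1 (0.004), Meg3 (-0.024) and Snhg11 (0.038) at P1 and for Miat (-0.305) and Snhg11 (-0.403) at P30. They did so within WT for Neat1 (0.485), Miat (0.322) and Snhg11 (0.932) at P1 and for Miat (-0.682), Rian (-0.418) and Snhg11 (-0.334) at P30. Within Kdm6b-cKO they did so for Rian (-0.076 at P1, -0.119 at P30), and within the P1 libraries without receptor signal for Neat1 (0.153) and Meg3 (-0.359). No paired analysis was possible because the columns do not carry the replicate numbers of the labels. Depth limits Rian and Neat1 most, with as few as 1 and 15 reads in a P1 library. These counts take Rian as its transcript of 3577 bases and Neat1 as its single exon of 20771 bases. Where the FPKM of Neat1 came from its shorter transcripts, the reads would be fewer than 15.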
